A study of Mus musculus with 2 samples.

Results

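The TLE genes Tle1, Tle2, Tle3, Tle4 and Tle6, together with Psat1 and Gm11232, which border Tle4 and Tle1 on their chromosomes, were examined for peaks of the POU-domain transcription factor POU3F1. These 7 genes were picked by name with their peaks already known, and 5 of them (Tle1, Tle3, Tle4, Psat1 and Gm11232) were among the 2323 genes to which the authors' deposited gene table assigns a peak. Tle2 and Tle6 had no row. The data come from CUT&RUN, in which an antibody directs a nuclease to cut chromatin around its target and the released fragments are sequenced. Retina of wild-type (WT) CD1 mouse embryos at day 14 was profiled in 2 libraries, 1 made with the POU3F1 antibody and 1 with rabbit IgG as the control antibody. The sources used here do not give the number or sex of the embryos. The tissue was whole retina, so a peak cannot be given to a retinal cell type.

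TLE proteins, the mammalian relatives of Drosophila Groucho, are corepressors without DNA-binding activity of their own. They are brought to chromatin by factors such as the HES proteins, which carry a C-terminal docking peptide, by TCF/LEF factors in the absence of Wnt signalling, and by homeodomain proteins with an engrailed-type repression motif, among them Six3 in the developing mouse eye. Tle1 to Tle4 encode full-length corepressors, Tle5 (also called Aes) a short protein that can antagonise them, and Tle6 a diverged member known from the maternal complex of the mouse oocyte. Psat1 encodes phosphoserine aminotransferase, an enzyme of serine synthesis, and Gm11232 is a predicted protein-coding gene.

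The peak on the Tle4 promoter is the only member peak that lay on a RefSeq promoter window (250 bases before to 50 after a start site) of a member. The sequence of that window, from RefSeq (GRCm38.p6, the same assembly as mm10), is chr19:14598134-14598433 on the minus strand, written 5′ to 3′ with the 201 bases covered by the peak in capitals.
Tle4 promoter: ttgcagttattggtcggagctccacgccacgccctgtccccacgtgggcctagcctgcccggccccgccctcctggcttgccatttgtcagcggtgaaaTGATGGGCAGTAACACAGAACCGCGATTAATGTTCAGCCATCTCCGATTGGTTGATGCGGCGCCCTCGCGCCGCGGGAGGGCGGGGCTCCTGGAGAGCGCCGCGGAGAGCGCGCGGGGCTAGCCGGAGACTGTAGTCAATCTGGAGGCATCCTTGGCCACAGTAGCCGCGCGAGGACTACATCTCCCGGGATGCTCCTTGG
The peak summit lay at base 203 of this window, 48 bases upstream of the RefSeq start site. The covered bases were 64.7% G or C, and the whole window 65.0%. The POU octamer ATGCAAAT (ATTTGCAT on the other strand) was found in none of the 10 promoter windows of the 7 genes, and none held a copy with 1 mismatch. Of all 32851 windows, 1.74% held an exact copy on either strand and 18.6% an exact or 1-mismatch copy. An absent match says only that these letters are not in the window.

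The deposited table paired the 5 genes with peaks 63 times, through 53 distinct peaks of the 2652 in the list. Tle4 had 17 assigned peaks, Psat1 and Gm11232 13 each, Tle3 11 and Tle1 9. An assigned peak was present at 10.2% of 21887 protein-coding genes, and at least 9 peaks at 0.146% of them, at least 11 at 0.0959%, at least 13 at 0.0411% and at least 17 at 0.0183%. Since the genes were picked with their peaks known, these shares place the counts on a scale and test nothing. By number of peaks, Tle4 stood between Mef2c with 19 and Dach1 with 16, and 3 genes of the table had more than Tle4. Psat1 and Gm11232 shared their count with Adgrl2 and Mdfic. The 3 genes with the next lower count were Foxp1, Gm765 and Tcf7l2, with 12 each. The median gene of the table had 1 peak.

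**Figure D1:**
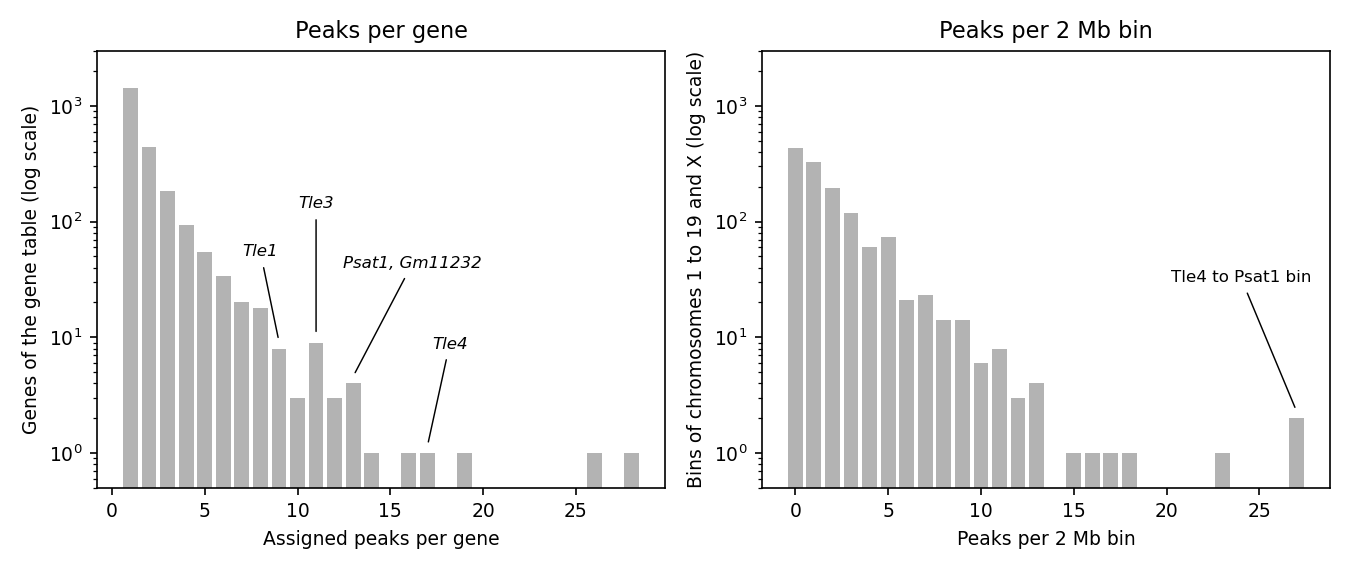
Left, the number of genes (log scale) by assigned POU3F1 peaks per gene, with the 5 members named; right, the number of 2 Mb bins of chromosomes 1 to 19 and X (log scale) by peaks per bin. Tle4 with 17 peaks lies in the thin right-hand end of the left plot, and the bin of Tle4 and Psat1, with 27 peaks, is 1 of 2 at the right-hand end of the other.

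The counts depend on how peaks were assigned, and most member peaks were counted for more than one gene. GREAT, the tool behind the gene table, extends the domain of a gene by as much as 1000000 bp, up to the basal domain of the next gene (5000 bp upstream to 1000 bp downstream of its start site), so that the extensions of neighbouring genes can overlap and genes with distant neighbours can collect more peaks. All 9 Tle1 peaks were shared with another gene, 7 with Gm11232 and 2 with Aldoart1. All 13 Gm11232 peaks were shared as well, 7 with Tle1 and 6 with Megf9. Of the 17 Tle4 peaks, 11 were also assigned to the olfactory receptor gene Olfr1505, 3 to Psat1 and 3 to no other gene. Of the 13 Psat1 peaks, 3 were shared with Tle4 (23.1% of Psat1's and 17.6% of Tle4's), and 10 were assigned to Psat1 alone. Tle3 shared 6 peaks with Rplp1 and 4 with Uaca, which was every peak of both of these neighbours. Counted only for the nearest assigned start site, Tle4 kept 11 peaks, Psat1 11, Tle3 8, Gm11232 8 and Tle1 5.

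Most distances of member peaks from start sites were over 50 kb, and so were most distances of the other pairs. Of the 63 distances, 3 were within 5 kb of the transcription start site (TSS), 9 at 5 to 50 kb, 43 at 50 to 500 kb (68.3%) and 8 beyond (12.7%). Within 5 kb were 4.76% of the members' distances, against 8.34% of the 4245 other pairs that could be placed on a peak. Of those other pairs, 61.1% lay at 50 to 500 kb and 15.8% beyond 500 kb, the latter a larger share than among the members. The median distance was 240 kb for the members and 164 kb for the other pairs. Of the 53 peaks, 34 (64.2%) overlapped no annotated gene, against 39.8% of the 2555 other peaks on the assembled chromosomes. A body of a protein-coding gene was overlapped by 13 member peaks (24.5%), against 49.1% of the others, and 6 member peaks lay only in other genes, all of them long non-coding RNA genes. Exons and introns could not be told apart with the annotation used here.

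Enrichment of the member peaks was ordinary at the median, with a few strong peaks. The fold is the authors' summit signal relative to its local background, read here with 1 fragment added to each. Where the background is low, the fold is therefore well below the plain ratio of fragments to background. The median fold was 6.38 for the 53 member peaks (quartiles 4.90 and 10.6) and 6.37 for the other 2599 (quartiles 4.91 and 8.84). At least 10-fold were 15 member peaks (28.3%), against 18.5% of the others, and at least 20-fold were 5 (9.43%), against 4.27%. The median length was 381 bp for member peaks and 352 bp for the others. The number of fragments piled up at the summit, recovered from the deposited fold and p-value, had a median of 29 for member peaks and 19 for the others. The local background recovered with it was at least 5 fragments at 16 member peaks (30.2%), against 15.6% of the others. The lowest background recovered was 1.04 fragments in both sets, so folds over 1.04 rest on the smallest background in the list. With 1 library there is no replicate spread to set these differences against, and none was tested.

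Tle4 (gene ID 21888, chromosome 19: 14448072 to 14598183, minus strand) carried peaks on its promoter, along its body and on both sides. The promoter peak at 14598068 to 14598334 had 5.20-fold enrichment, with its midpoint 218 bp upstream of the start site in the gene table, which lies 200 bp downstream of the RefSeq start used for the sequence above. Its fold was 1846th of the 2652, while its pileup of 63 fragments (95% exact Poisson interval 48.4 to 80.6, counting error only) was the 233rd highest. The recovered local background there was 11.3 fragments. So the promoter peak had many fragments over a high local background. A peak lay on a promoter window at 0.932% of the 17492 protein-coding genes with one.

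In the Tle4 body, 5 further peaks lay downstream of the start site. The pair at 14565595 to 14566097 (6.40-fold, 35 fragments) and 14566551 to 14567222 (7.43-fold, 79 fragments) lay 32137 and 31097 bp downstream and both overlapped the long non-coding RNA gene Gm31441. Farther along the gene, peaks at 88837 and 90822 bp downstream had 6.39-fold and 4.16-fold, with 12 and 16 fragments. The strongest peak in the body, at 14482154 to 14482498, lay 115657 bp downstream with 10.2-fold and 25 fragments. With the promoter peak, 6 peaks overlapped the 150 kb body. Tle1 had 4 in a body of 91.0 kb and Tle3 had 3 in one of 46.2 kb. At least 3 peaks overlapped 0.503% of protein-coding genes, and 1.81% of the 6007 that were 40 kb or longer.

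Beyond the 3′ end of Tle4, 6 peaks lay 260674 to 501484 bp from the start site. The farthest of them, at 14096301 to 14096698, was the strongest Tle4 peak (15.7-fold, 47 fragments) and overlapped the long non-coding RNA gene Gm31331. The other 5 had folds between 4.33 and 6.89, and pileups of 8 to 48 fragments. Upstream of the promoter, peaks lay at 179425 bp (11.4-fold, 28 fragments) and 293493 bp (10.6-fold, 97 fragments). The peak at 293493 bp was the longest member peak, with 1936 bp. The remaining upstream peaks, at 449604, 511401 and 904901 bp, were those shared with Psat1. Of these 3, the one at 15109103 to 15109666 was the strongest, with 14.7-fold and 29 fragments. Tle4 thus had 5 peaks of at least 10-fold and none of at least 20-fold.

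Psat1 (gene ID 107272, chromosome 19: 15905123 to 15925059, minus strand) had no peak on its promoter or body. Its 13 peaks all lay downstream, between 86539 and 877472 bp from the start site, in the interval that separates it from Tle4. The nearest peak ended 66481 bp short of its 3′ end. The strongest of all member peaks was here, at 15836271 to 15837508, 88170 bp downstream of the start site. It had 51.1-fold enrichment, the 18th highest of the list, and a summit pileup of 260 fragments (95% exact Poisson interval 229 to 294), the 36th highest. Weaker peaks followed directly on its Psat1 side, at 15837794 to 15838084 (8.82-fold, 35 fragments) and 15838398 to 15838642 (6.88-fold, 13 fragments). Merged where less than 1 kb apart, these 3 peaks became 1.

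The second strongest Psat1 peak lay at 15803096 to 15803711, 121656 bp downstream, with 25.2-fold and 89 fragments. A weak peak next to it, at 15801628 to 15801827, had 3.64-fold and 12 fragments. In all, 7 of the 13 peaks lay between 86539 and 140219 bp from the start site. Farther out, folds were 5.44 at 197867 bp, 5.18 at 232316 bp and 12.8 at 313610 bp. The peak of 5.18-fold had 68 fragments over a background of 12.3, and that of 12.8-fold had 25 over 1.04. Fold and fragment number therefore ranked these peaks differently.

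The Tle4 and Psat1 start sites are 1327076 bp apart, and the interval from 14 to 16 Mb held 27 peaks. Each of the 27 was assigned to Tle4, to Psat1 or to both. The interval holds 3 protein-coding genes (Tle4, Psat1 and Cep78) and 8 long non-coding RNA genes. Its density was 13.5 peaks per Mb (95% exact Poisson interval 8.90 to 19.6, counting error only). Among 1306 bins of 2 Mb on chromosomes 1 to 19 and X, the median held 1 peak, and 2 bins (0.153%) held 27, the highest number reached. The other such bin lay on chromosome 18 from 54 to 56 Mb. Peaks of the chromosome 19 interval had a median fold of 6.40 and a median summit spacing of 43.5 kb. The largest distance between neighbouring summits was 394 kb. That widest space lay between the shared peaks 511401 and 904901 bp upstream of Tle4.

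**Figure D2:**
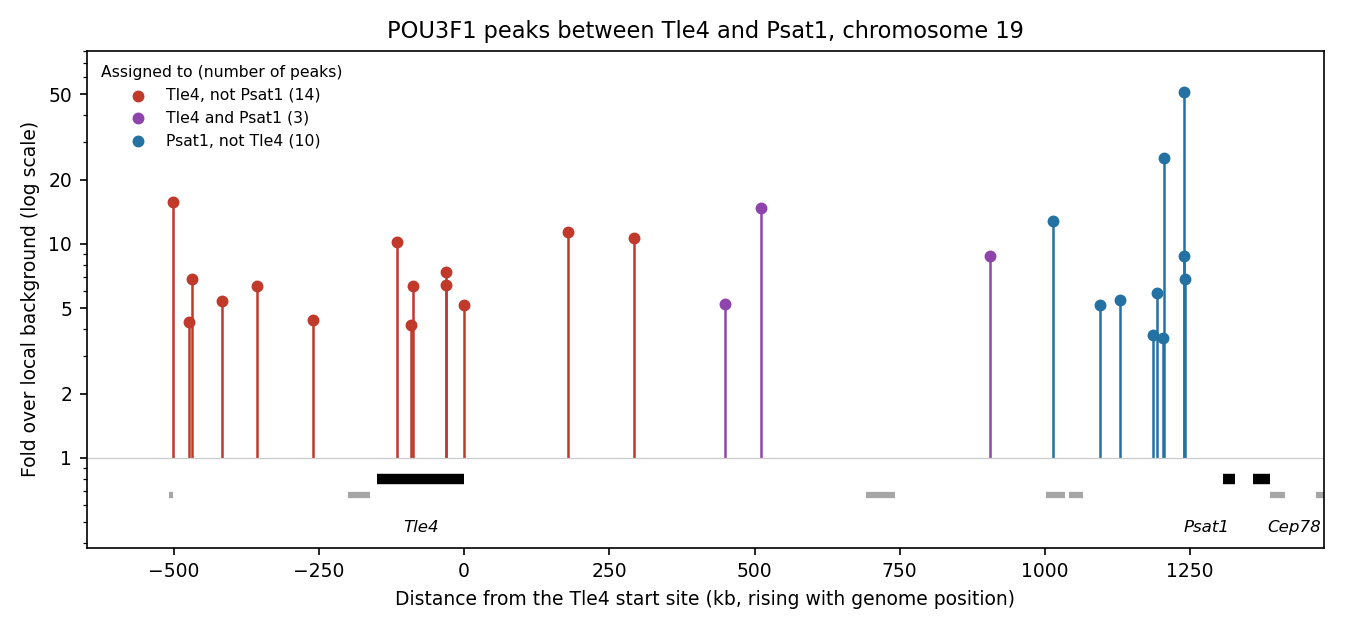
POU3F1 peaks at Tle4 and Psat1: the x axis gives the distance of each summit from the Tle4 start site in kb, and the height gives the authors' fold on a log scale, with colours for the assigned gene. Black bars are bodies of protein-coding genes and grey bars those of long non-coding RNA genes; Tle4 and Psat1 are both transcribed leftwards, and the tallest line is the 51.1-fold peak between them on the Psat1 side.

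Tle1 (gene ID 21885, chromosome 4: 72109945 to 72200989, minus strand) had peaks inside its body, between it and Gm11232, and upstream, but none within 5 kb of its start site. The peak closest to the start lay 5121 bp downstream, at 72195563 to 72195910, with 4.90-fold and 19 fragments. A peak 18243 bp downstream had 4.65-fold and 18 fragments. The peak at 72167326 to 72168550, 32919 bp downstream, had 11.7-fold and 149 fragments (95% exact Poisson interval 126 to 175), over a background of 11.8. Next to it, 40659 bp downstream, a peak had 6.27-fold and 60 fragments. Upstream, peaks at 181772 and 565951 bp had 8.66-fold and 16.7-fold, with 21 and 33 fragments.

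Between Tle1 and Gm11232, whose start sites are 442892 bp apart, the strongest Tle1 peak lay at 71840181 to 71840852. It had 27.0-fold enrichment, the 59th highest of the list, with 54 fragments over a background of 1.04, the lowest value recovered. This peak was 360341 bp downstream of Tle1 and 82551 bp upstream of Gm11232. A peak of 11.8-fold lay at 71933265 to 71933736. The peak nearest to Gm11232, 7315 bp upstream of its start site, had 4.65-fold and 49 fragments. From the start of Gm11232 to the end of Tle1, 7 peaks fell in 445 kb, a density of 15.7 per Mb (95% exact Poisson interval 6.32 to 32.4). The 14 to 16 Mb interval of chromosome 19, which also takes in the Tle4 body and peaks beyond its 3′ end, had 13.5 per Mb. Between Tle4 and Cep78, the protein-coding genes flanking Psat1, 16 peaks gave 11.8 per Mb. Of 5900 bins of the same length as the Gm11232 to Tle1 interval, 25 (0.424%) held at least 7 peaks.

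Gm11232 (gene ID 102634852, chromosome 4: 71755746 to 71757960, minus strand) had no peak on its body of 2.21 kb. On its far side from Tle1 it was paired with 6 peaks, the ones also assigned to Megf9. Of these, 3 lay close together 272373 to 275956 bp downstream of its start site. The middle one, at 71484042 to 71484819, had 11.4-fold and 133 fragments, and the outer ones 7.43-fold and 5.74-fold with 19 and 46 fragments. The peak 239666 bp downstream had 4.80-fold and 95 fragments over a background of 19 fragments, the highest background of any member peak. The 2 farthest, at 527565 and 835618 bp, had 4.52-fold and 6.17-fold.

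Tle3 (gene ID 21887, chromosome 9: 61372326 to 61418497, plus strand) had the peak nearest to a start site after that of Tle4, though a weak one. It lay 2473 bp upstream, at 61370789 to 61371036, with 3.49-fold and 32 fragments over a background of 8.46. The peak 4698 bp downstream had 3.65-fold and 10 fragments, and was the only member peak with a q-value above 0.01. An assigned peak within 5 kb of the start site was present at 1.40% of protein-coding genes, and among the members at Tle3 and Tle4. The table's start site for Tle3 lies 1019 bp downstream of the RefSeq one, so both distances depend on the start site chosen. In the body, peaks 11758 and 31920 bp downstream had 5.89-fold and 4.80-fold.

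The strong Tle3 peaks lay beyond its 3′ end. At 383678 bp downstream, the peak at 61756874 to 61757252 had 24.7-fold and 87 fragments, and at 499135 bp the peak at 61872256 to 61872785 had 20.6-fold and 83 fragments. Both overlapped long non-coding RNA genes, Gm34828 and Gm34974, and both lay nearer to the start site of Rplp1, a ribosomal protein gene. A peak 95509 bp downstream had 8.91-fold and 51 fragments. The 4 upstream peaks between 111418 and 302372 bp had folds from 3.77 to 6.51, with 9 to 26 fragments. Tle3 had the lowest median fold of the 5 genes, 5.40, and Tle1 the highest, 8.66.

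**Figure D3:**
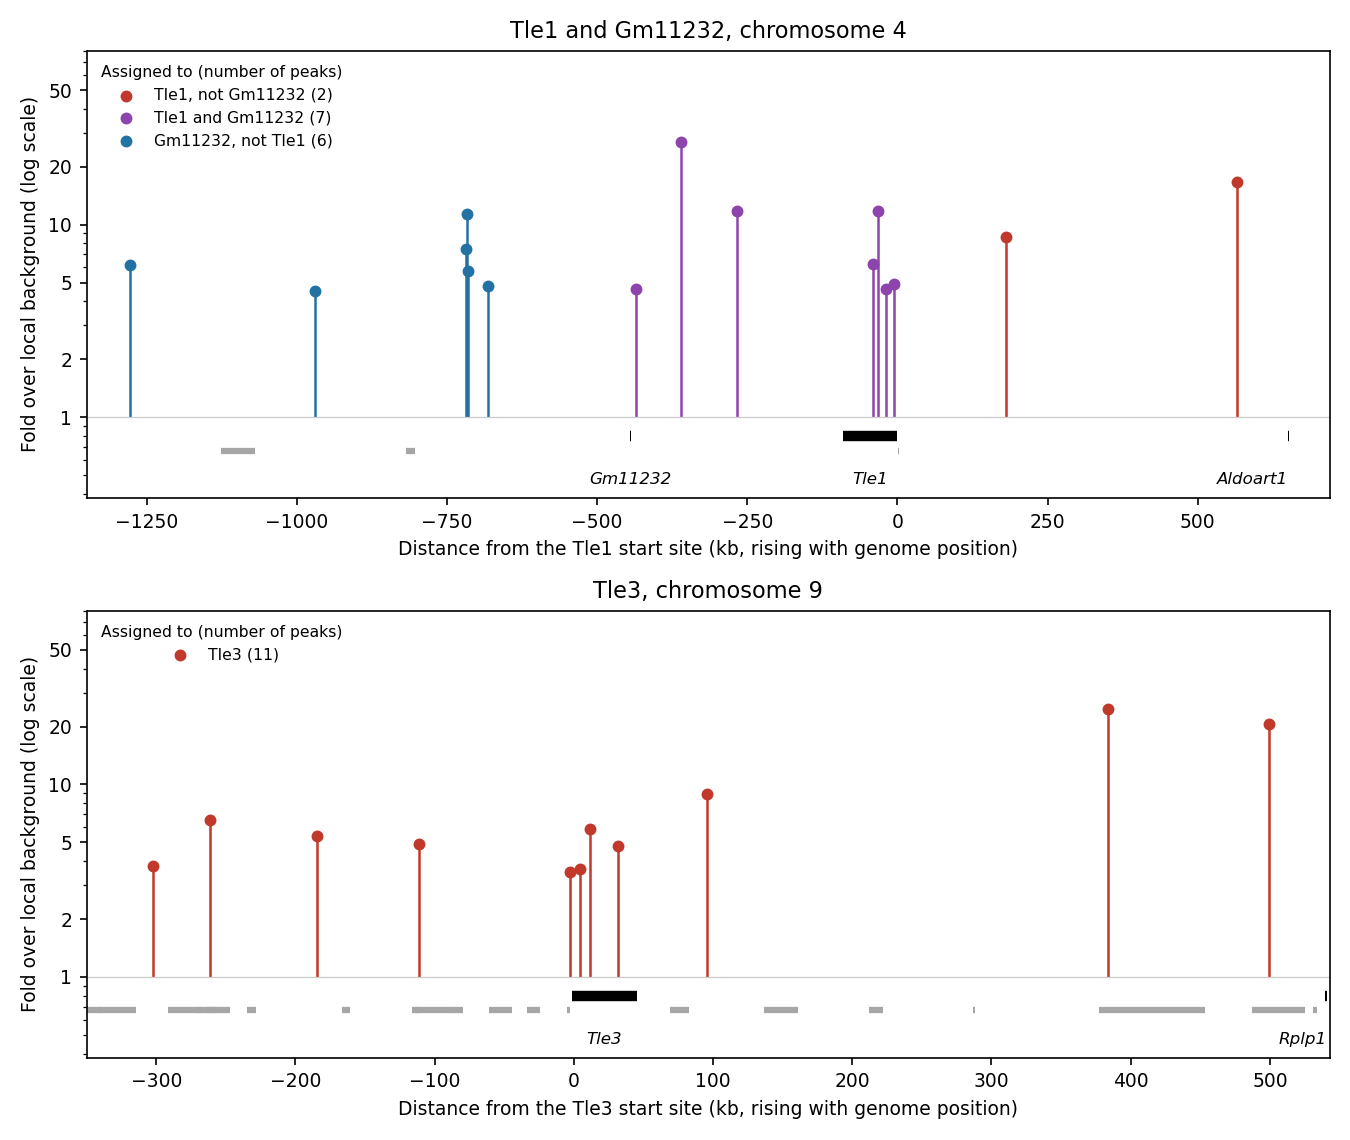
POU3F1 peaks at Tle1 and Gm11232 (top) and at Tle3 (bottom), by the distance of the summit from the start site of Tle1 or Tle3 in kb and the authors' fold on a log scale; black bars are protein-coding and grey bars long non-coding RNA genes. The tallest lines are the 27.0-fold peak between Gm11232 and Tle1, and the 24.7-fold and 20.6-fold peaks between Tle3 and Rplp1, whose bar is the black one at the right edge.

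Tle2 and Tle6 overlap each other on chromosome 10 (81574739 to 81592581 and 81590904 to 81601185) and lie in a crowded stretch, with 55.4 kb between the flanking genes Tle5 and Sirt6. No peak lay there. The nearest one, at 83106237 to 83106627 with 6.51-fold, was 1.51 Mb away from both genes. That is farther than the 1000000 bp by which GREAT extended a domain at most. The other TLE genes had no assigned peak either: for Tle5 the nearest peak was 1.54 Mb away, and for Tle7, on chromosome 8, it was 0.190 Mb away. The space between flanking protein-coding genes was 1.99 Mb at Tle4, 1.09 Mb at Tle1 and 1.03 Mb at Tle3. Tle4, Tle1 and Tle3 thus also had more distant neighbours than Tle2 and Tle6. The part of this in the peak counts of Tle4, Tle1 and Tle3 was not tested.

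The Psat1 peak of 51.1-fold led the member peaks by both fold and pileup, and below it the 2 measures ordered the peaks differently. The 27.0-fold peak between Gm11232 and Tle1 ranked 59th by fold and 308th by pileup, while the Tle1 body peak of 149 fragments ranked 69th by pileup and 370th by fold. Peaks with a background of at least 5 fragments included the Tle4 promoter, the stronger of its pair of peaks over Gm31441, and the Tle1 body peaks at 32919 and 40659 bp.

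**Figure D4:**
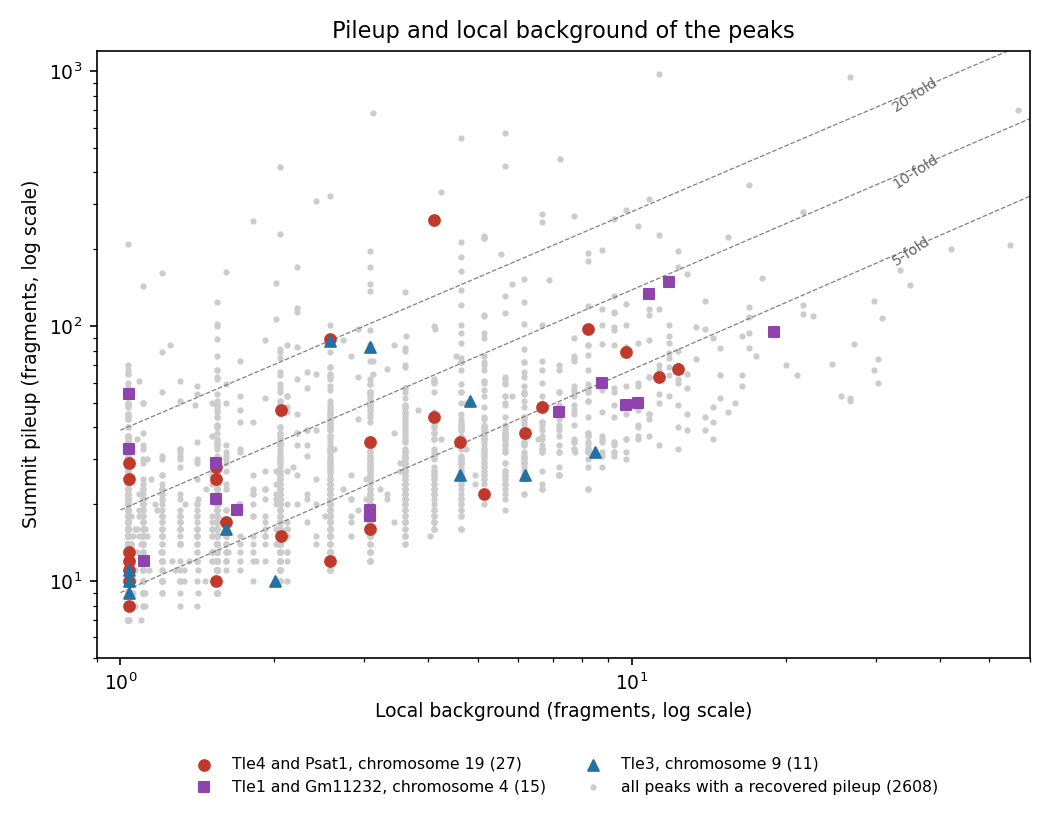
Summit pileup against recovered local background, both in fragments on log axes, for the 53 member peaks (coloured by locus) and all 2608 peaks with a recovered pileup (grey); dashed lines mark 5-fold, 10-fold and 20-fold, and 19 grey peaks lie beyond the axes. Member peaks spread over backgrounds of 1.04 to 19 fragments, with the 260-fragment Psat1 peak highest.

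Among factors that bind TLE proteins, 17 of a list of 42 genes (40.5%) had an assigned peak, beside 10.2% of all protein-coding genes. The list was drawn from general knowledge and was not tested, and some of its genes were known to have peaks. The 17 genes had a median of 2 peaks each, and 8 of them had 1. Within 5 kb of the start site, peaks were assigned to 4 of the 42 genes (Hes5, Tcf7l2, Foxd3 and Fezf2), beside 1.4% of all protein-coding genes. Tcf7l2, a TCF/LEF effector of Wnt signalling, had 12 peaks, of which 1 lay 43 bp upstream of the start site and the strongest, 185528 bp upstream, had 37.0-fold and 226 fragments. Hes5, a Notch effector, had 3 peaks, the strongest 172 bp upstream with 20.4-fold and 198 fragments. Pax5, a paired-domain factor gene, had 1 peak, 151996 bp downstream with 18.7-fold and 37 fragments. Six3, which works with TLE proteins in the eye, had 3 peaks of at most 4.56-fold.

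Of 14 genes of serine synthesis and one-carbon metabolism, Psat1 alone had an assigned peak (7.14%, beside 10.2% of all protein-coding genes). Phgdh and Psph, which encode the enzymes before and after phosphoserine aminotransferase in serine synthesis, had none.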

How the data were processed

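Per the labels, chromatin of E14 retina was profiled by paired-end CUT&RUN in 2 libraries, 1 per antibody. The submitters' processing notes name Bowtie2, MACS2, deepTools and mm10, without versions. For each peak, the deposited list (2652 peaks, q-value threshold 0.05) gives a fold enrichment ratio, a −log10 p-value and −log10 q-value, and a score, which the authors' file holds beside the summit position. All 2652 intervals recur in a deposited 3-column file. Whether the IgG library served as control is not given in the sources used here, so the local background may or may not hold its signal. The IgG library was not analysed on its own. The deposited gene table was made, per the file headers, with GREAT 4.0.4 (5000 bp upstream, 1000 bp downstream, extension to 1000000 bp, curated domains included).

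Library depth is unknown from these files. The whole-number summit pileup and local background were recovered from fold and p-value for 2608 peaks (98.3%) within 0.001 of the −log10 p-value. For this, the fold was taken as pileup plus 1 over background plus 1. Distances were placed on peak midpoints within 1 bp through RefSeq gene positions (GRCm38.p6), which placed 4308 of 4427 pairs (97.3%) and every pair of the members. Of the table's 2323 genes, 2184 matched RefSeq by symbol, 86 by synonym and 53 not at all. Both steps were tested on simulated data. The simulated backgrounds were lower than the highest ones recovered, such as 11.3 fragments at the Tle4 promoter. Overlap means at least 1 bp. Python 3.11.15, scipy 1.17.1 and pandas 2.3.3 were used.

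All values come from 1 POU3F1 library and 1 peak list, without replicates, and no test was run. Intervals cover counting error at most, and can be too narrow even for that, since PCR copies are not independent molecules. Those on peaks per Mb count peaks as independent, although some lay less than 1 kb apart. Genes, lists and intervals were chosen with earlier results of these data known. Named are all 7 genes, the remaining TLE genes, their neighbours, genes next to them in number of peaks, and the genes of highest fold in each list; Six3, Foxd3, Phgdh and Psph were named after their values were seen. A gene of the list of TLE-binding factors is counted but its values are not reported here. The alternatives tried were stricter q-values, a fold minimum of 6, distance limits of 50 and 500 kb, the nearest start site only, and merging of close peaks.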

Additional observations from a re-analysis of the deposited data

How the results depend on the processing

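Of 55 values recomputed under the alternatives for 9 counts, 38 stayed within 1.5 times the count reported. Limiting pairs to 50 kb of the start site moved the most: Tle4 kept 3 peaks, Tle1 4, Tle3 4, Gm11232 1 and Psat1 0, with 6 of the TLE partner genes and 0 of the serine synthesis genes. A fold of at least 6 left 11 peaks for Tle4, 7 for Psat1, 7 for Gm11232 and 4 for Tle3, with 16 in the chromosome 19 interval, 4 between Gm11232 and Tle1, and 10 TLE partner genes. Counting each peak only for its nearest assigned start site left 11 for Tle4, 5 for Tle1 and 8 for Gm11232. The q-value limits of 0.01 and 0.001, the 500 kb limit and merging moved none of the counts by over 1.5 times. These changes follow from the rules themselves. Pileups of 8 to 20 fragments limit many single peaks, and the single library limits all counts.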
